A study of Homo sapiens with 18 samples.

Results

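The effect of acetate on senescent human fibroblasts that lacked mitochondria and had received mitochondrial DNA (mtDNA) was measured by RNA-seq. The comparison set 3 libraries of cells given mtDNA and acetate against 3 libraries of cells given mtDNA alone, 6 of the 18 libraries of the series. The samples were chosen by their labels, and the genes were those that passed a filter on low counts, 16994 of the 57500 genes in the table. The cells were IMR90, an established line of human embryonic lung fibroblasts, engineered so that CCCP drives the removal of mitochondria. CCCP is an uncoupler that collapses the potential across the inner mitochondrial membrane. Cells of both groups were irradiated with X-rays to induce senescence, Sen (IR), and treated with CCCP for the 2 days that began 1 day after irradiation. Both groups were then transfected with 10 μg of mtDNA on day 10 after irradiation. One group, Sen (IR) + CCCP + mtDNA, is called mtDNA cells here. The other, Sen (IR) + CCCP + mtDNA + acetate, also received 20 mM sodium acetate every other day and is called mtDNA + acetate cells. For comparison, the same acetate treatment without transfection was given by Sen (IR) + CCCP + acetate (acetate cells) against Sen (IR) + CCCP (CCCP cells), 3 libraries each, which share no library with the main comparison.

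All groups used here carried the irradiation and CCCP, so none of these values describes acetate in cells with mitochondria. The labels name no group given the transfection reagent without mtDNA, and the day of collection of the transfected cultures is not given in the sources used here. The cells are of a single line. The study describes its in vitro experiments as repeated independently, but the labels do not tie these libraries to separate cultures. The p-values therefore measure a spread between libraries, which may be technical and was estimated over all 18 libraries of the series. The common coefficient of variation between replicates was 0.0644 in that fit and 0.0817 in a fit of the compared groups alone. The comparison asks whether acetate, a source of acetyl groups, changes the secretory programme of these cells when DNA of mitochondrial origin has also been supplied.

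Senescent cells have stopped dividing and release the senescence-associated secretory phenotype (SASP), a mixture of cytokines, chemokines, growth factors and proteases. Many SASP genes are transcribed by NF-κB together with C/EBPβ, and their loci carry acetylated histones. DNA in the cytosol is bound by the sensor cGAS, which makes a cyclic dinucleotide that activates STING. STING recruits the kinase TBK1, which activates IRF3 for transcription of type I interferon, and it also feeds NF-κB. Secreted interferon acts through its receptor and a complex of transcription factors to induce interferon-stimulated genes (ISGs). Acetate is converted to acetyl-CoA by ACSS2 in the nucleus and cytosol, which supplies histone acetyltransferases and lipid synthesis.

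Promoter windows of 6 genes that stand for the main gene groups are printed here, because the groups moved in different directions and carry different binding motifs. Each window runs from 250 bases before to 50 bases after the annotated transcription start, from RefSeq on GRCh38.p14, and is written 5′ to 3′ on the strand of the gene. CXCL8, encoding a chemokine for neutrophils, lies at chr4:73740319-73740618 (plus strand). CSF2, encoding the growth factor GM-CSF, lies at chr5:132073539-132073838 (plus strand). IFI44L and RTP4, both ISGs, lie at chr1:78620198-78620497 (plus strand) and chr3:187368135-187368434 (plus strand). ASNS, encoding asparagine synthetase, lies at chr7:97872359-97872658 (minus strand), and ACTG2, encoding smooth muscle gamma actin, lies at chr2:73892758-73893057 (plus strand). Capitals mark matches, on either strand, to the κB motif GGNNNTTCC in CXCL8 and CSF2, to the interferon-response core GAAANNGAA in IFI44L and RTP4, to the ATF4 motif TGATGNAA in ASNS, and to the CArG box of serum response factor in ACTG2.
CXCL8: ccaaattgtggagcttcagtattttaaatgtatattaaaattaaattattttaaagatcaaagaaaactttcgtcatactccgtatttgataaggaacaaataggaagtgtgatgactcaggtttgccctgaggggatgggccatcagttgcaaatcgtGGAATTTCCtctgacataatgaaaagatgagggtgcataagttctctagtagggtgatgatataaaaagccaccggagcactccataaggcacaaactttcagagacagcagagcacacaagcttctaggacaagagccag
CSF2: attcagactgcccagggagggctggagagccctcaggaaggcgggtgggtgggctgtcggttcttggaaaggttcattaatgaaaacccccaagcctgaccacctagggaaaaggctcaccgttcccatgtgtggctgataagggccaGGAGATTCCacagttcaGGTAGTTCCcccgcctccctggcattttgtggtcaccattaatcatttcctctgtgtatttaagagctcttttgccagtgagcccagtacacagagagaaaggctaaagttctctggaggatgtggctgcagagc
IFI44L: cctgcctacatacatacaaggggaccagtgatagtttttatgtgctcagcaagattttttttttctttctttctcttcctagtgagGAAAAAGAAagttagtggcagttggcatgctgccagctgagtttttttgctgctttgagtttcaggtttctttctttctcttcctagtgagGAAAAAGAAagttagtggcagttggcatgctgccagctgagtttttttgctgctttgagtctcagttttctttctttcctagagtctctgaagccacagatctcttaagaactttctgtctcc
RTP4: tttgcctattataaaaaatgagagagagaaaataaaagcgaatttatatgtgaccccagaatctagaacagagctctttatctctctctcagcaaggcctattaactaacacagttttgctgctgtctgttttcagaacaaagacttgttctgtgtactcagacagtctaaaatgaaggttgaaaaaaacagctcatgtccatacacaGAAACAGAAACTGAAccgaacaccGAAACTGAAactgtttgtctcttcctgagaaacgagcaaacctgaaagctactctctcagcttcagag
ASNS: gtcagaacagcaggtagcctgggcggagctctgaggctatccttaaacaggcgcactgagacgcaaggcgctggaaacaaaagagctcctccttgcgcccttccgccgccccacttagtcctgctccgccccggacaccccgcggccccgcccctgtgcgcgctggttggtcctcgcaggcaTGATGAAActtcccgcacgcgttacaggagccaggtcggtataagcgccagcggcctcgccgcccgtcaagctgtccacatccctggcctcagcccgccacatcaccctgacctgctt
ACTG2: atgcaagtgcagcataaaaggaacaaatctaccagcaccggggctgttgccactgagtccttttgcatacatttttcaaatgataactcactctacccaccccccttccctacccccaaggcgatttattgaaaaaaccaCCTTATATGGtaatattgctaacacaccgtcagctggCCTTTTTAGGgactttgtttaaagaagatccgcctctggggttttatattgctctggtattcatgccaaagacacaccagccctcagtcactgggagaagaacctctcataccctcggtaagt

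The κB motif was present in the windows of 15 of 29 SASP cytokine genes (51.7%) and of 17 of 21 genes of the NF-κB list (81.0%), against 23.5% of all 27305 genes with a window. The interferon-response core was present in 26 of 34 ISGs (76.5%) against 9.86% of all genes. For the ATF4 motif the shares were 4 of 17 genes of the ATF4 list (23.5%) and 4.46% of all genes, and for the CArG box 3 of 14 contractile genes (21.4%) and 1.6%. The lists were put together by known pathway, with earlier results of these data known, and members without a window were left out. These shares therefore describe the lists and not an effect of acetate. A match is a description of the letters and not evidence of binding, and adjacent matches can overlap, as they do in RTP4.

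Total counts on genes ranged from 25964689 to 28988516 in the mtDNA libraries and from 25013145 to 36703448 in the mtDNA + acetate libraries. The first principal component, 69.4% of the variance among these libraries, separated the mtDNA + acetate cells from the mtDNA cells. The second, 10.6%, separated mtDNA + acetate replicate 2 from the other two of its group. The chi-square statistic per degree of freedom between the counts of 2 libraries, which is near 1 for sampling noise alone, was 28.2 and 24.7 for replicate 2 against replicates 1 and 3, and 3.33 between those. Values without it are therefore given below where it decided a call or moved the fold change of a named gene by more than 1.5 times. Those fits set 2 mtDNA + acetate libraries against 3 mtDNA libraries. The library left out is the one that stood apart, so a smaller p-value without it is not stronger evidence. The summed level of 10 fibroblast markers was 6170 to 6460 CPM, counts scaled to the size of the library, in mtDNA cells and 5190 to 6000 CPM in mtDNA + acetate cells. All 6 leukocyte markers were under 1 CPM in every library, and their summed level was 0.359 to 0.388 CPM and 0.574 to 0.805 CPM in the same order. The summed level of the endothelial markers was 253 to 295 CPM and 189 to 199 CPM, and that of the neuron markers 23.9 to 27 CPM and 42.4 to 45.2 CPM. Epithelial markers summed to 34.9 to 38.2 CPM and 30.3 to 35 CPM, and smooth muscle markers to 46 to 54.3 CPM and 51.6 to 64.3 CPM. The fibroblast sum did not follow most of its members. Of the 10 fibroblast markers, 6 were called higher with acetate and 4 lower, with a median log2 fold change of 0.26. Without replicate 2, 4 were higher and 4 lower. These markers moved with acetate, and their part in the results was not tested. Counts from mtDNA-encoded genes, by which the removal of mitochondria can be read, were 1.75% to 2.89% of all counts in the proliferating and senescent cells not given CCCP and 0.0461% to 0.237% in these 6 libraries.

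Acetate changed the expression of many genes in mtDNA cells. With edgeR, at a Benjamini-Hochberg threshold of 0.05, 4664 genes (27.4% of those tested) were higher in mtDNA + acetate cells and 5084 (29.9%) were lower. These shares are the background against which each gene group is read. Without mtDNA + acetate replicate 2, 17497 genes passed the filter, of which 4644 (26.5%) were higher and 4807 (27.5%) lower. Of the genes called, 8874 were called in both fits, all in the same direction. In 5008 genes (29.5%) the 3 mtDNA + acetate libraries all lay above the 3 mtDNA libraries, and in 5397 (31.8%) all lay below. Acetate without mtDNA raised 4902 genes (28.8%) and lowered 4807 (28.3%). Of the 8037 genes called in both comparisons, 8007 (99.6%) moved in the same direction, and the log2 fold changes of all genes had a Pearson r of 0.843 and a Spearman rho of 0.842 across genes, which are not independent replicates. The comparisons share an estimate of the spread.

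**Figure D1:**
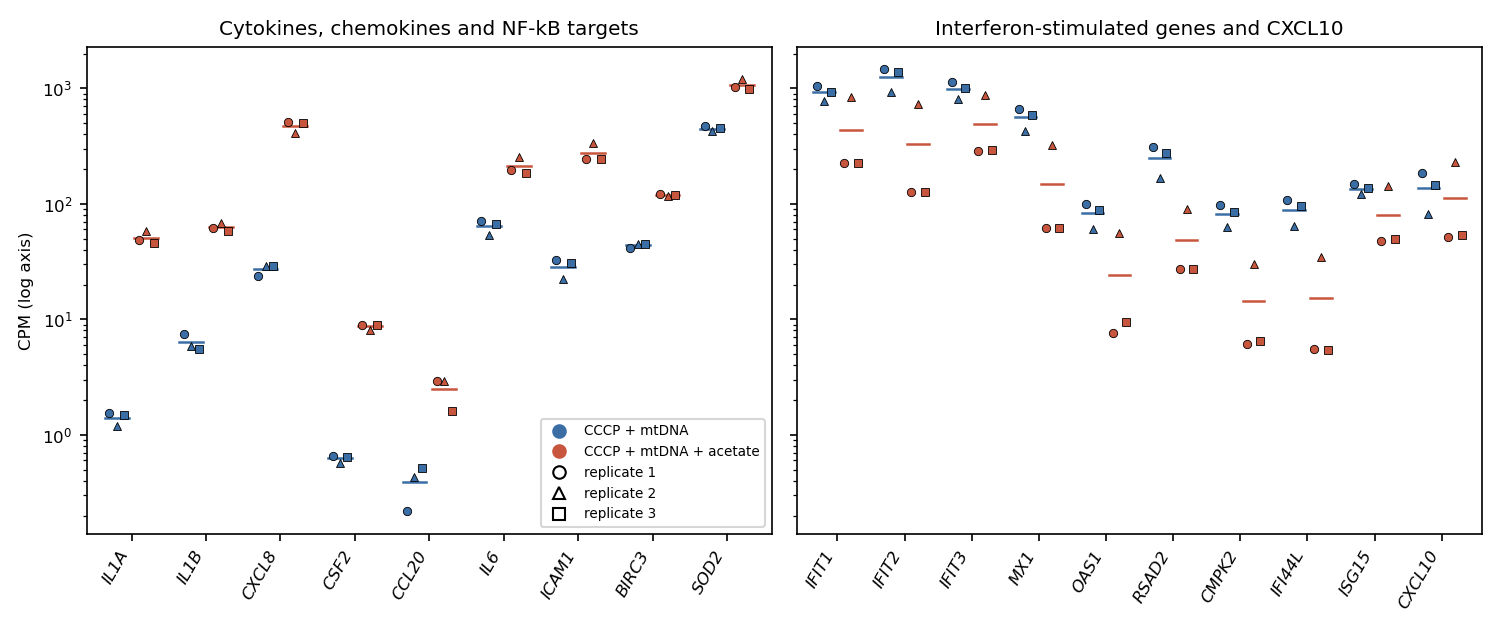
Expression of 9 cytokine, chemokine and NF-κB target genes (left) and of 10 interferon-inducible genes (right) in each library of mtDNA cells (blue) and mtDNA + acetate cells (red), in CPM on a log axis. Symbols mark the replicates and bars the group means. The left panel shows only genes that rose, while of the 32 SASP cytokine and chemokine genes tested 10 were lower and 8 did not pass. The cytokine and NF-κB target genes of the left panel were higher in all 3 mtDNA + acetate libraries, while on the right mtDNA + acetate replicates 1 and 3 lay below the mtDNA libraries and replicate 2 lay closer to them or among them, or above them for CXCL10.

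The interleukin 1 genes, CXCL8, CSF2 and IL6 rose with acetate, while several chemokines fell. Of the 32 SASP cytokine and chemokine genes tested (of 40 listed), 14 were higher, 10 lower and 8 did not pass, with a median log2 fold change of 0.47 against -0.02 over all genes tested. IL1A, the cell-surface cytokine that acts upstream of other SASP factors, measured 1.55, 1.19 and 1.49 CPM in the mtDNA libraries and 48.6, 58.3 and 45.8 CPM in the mtDNA + acetate libraries. The groups did not overlap, and the rise was 35.9-fold (log2 5.17 ± 0.15 SE, n = 3, edgeR adjusted p = 1.22e-16). IL1B, the secreted interleukin of the same receptor, went from 7.52, 5.82 and 5.55 CPM to 61.9, 68.4 and 58.4 CPM, a log2 fold change of 3.32 ± 0.11 SE (edgeR adjusted p = 7.52e-16). CXCL8, whose promoter window with a κB match is given above, measured 23.6, 29 and 29 CPM without and 512, 409 and 501 CPM with acetate, 17.4-fold higher (log2 4.12 ± 0.13 SE, edgeR adjusted p = 2.59e-16). CSF2 stood at 0.651, 0.575 and 0.646 CPM and 8.94, 8.15 and 8.96 CPM, a 13.9-fold rise at a low level. Replicate 2 was the highest of the mtDNA + acetate libraries for IL1A and IL1B and the lowest for CXCL8 and CSF2, and without it the log2 fold changes were 5.08, 3.27, 4.23 and 3.85.

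IL6, the interleukin most often used as a SASP readout, measured 71.6, 54 and 66.3 CPM in mtDNA cells and 198, 256 and 185 CPM in mtDNA + acetate cells, 3.33-fold higher (log2 1.73 ± 0.11 SE, edgeR adjusted p = 1.58e-11). TNFSF15, a cytokine of the TNF family, rose 7.24-fold, and CCL20, which attracts cells that bear CCR6, rose 6.28-fold from 0.217, 0.431 and 0.517 CPM. CXCL1, a neutrophil chemokine with close paralogs among which reads may be split, rose 4.39-fold and remained at or under 2.01 CPM. IL32, LIF, TSLP, IL11 and IL24 rose by 1.38, 0.64, 0.61, 0.53 and 0.42 on the log2 scale. Corrected for transcript length in the deposited TPM, the order of the levels in mtDNA + acetate cells was CXCL8 (1020 TPM), IL6 (502), IL1A (117), IL1B (99.2) and CSF2 (54).

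Of the 32 SASP cytokine genes tested 10 were lower, near the 29.9% of all genes tested that were lower. Of these 10, 7 were chemokines, a share that was not compared with that in the whole list. One of them, CCL3, was near 0 in every library, at 0.361, 0.287 and 0.0969 CPM in mtDNA cells and 0, 0.041 and 0 CPM in mtDNA + acetate cells, and no fold is given. CXCL12, the ligand of CXCR4, dropped from 2.67, 2.62 and 2.62 CPM to 0.409, 0.861 and 0.595 CPM, 4.4-fold lower (edgeR adjusted p = 4.76e-08). CXCL5, a neutrophil chemokine like CXCL8, measured 15.4, 12.2 and 13.9 CPM and 6.24, 5.37 and 4.34 CPM and was 2.58-fold lower. CXCL16, a membrane-bound chemokine, IL33, an alarmin, and IL7, a lymphocyte survival factor, were 3.35-, 3.47- and 2.44-fold lower. CCL2, CCL5 and CXCL11, which interferon or NF-κB can induce, were 2.23-, 2.22- and 2.5-fold lower. In CCL2 and CXCL11 the groups overlapped through replicate 2, and without it the falls were 2.99- and 4.78-fold. CXCL10, a chemokine of activated T cells and an interferon target, measured 183, 82.3 and 145 CPM in mtDNA cells and 52, 229 and 53.8 CPM in mtDNA + acetate cells. Replicates 1 and 3 lay below every mtDNA library and replicate 2 above every one, so that the gene was not called with all libraries (log2 -0.31 ± 0.36 SE, edgeR adjusted p = 0.496) and was 2.56-fold lower without replicate 2 (edgeR adjusted p = 2.28e-06).

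Of 22 NF-κB subunit, inhibitor and target genes tested, 16 were higher, 1 was lower and 5 did not pass, and the median log2 fold change was 0.56. ICAM1, an adhesion molecule for leukocytes, measured 32.9, 22.2 and 30.6 CPM in mtDNA cells and 242, 333 and 245 CPM in mtDNA + acetate cells, 9.55-fold higher (log2 3.26 ± 0.14 SE, edgeR adjusted p = 2.93e-14). VCAM1, another adhesion molecule, rose 3.69-fold from 6.69, 3.34 and 5.33 CPM. BIRC3, an inhibitor of cell death, went from 41.8, 45.2 and 44.6 CPM to 122, 117 and 119 CPM, and SOD2, the superoxide dismutase of mitochondria, from 467, 425 and 448 CPM to 1018, 1209 and 986 CPM. Both groups of libraries stood apart in each of these 4 genes. The feedback inhibitors NFKBIA, TNIP1 and TNFAIP3 rose by 1.04, 1.06 and 0.36 on the log2 scale, the last of which did not pass without replicate 2 (log2 0.13 ± 0.0822 SE, edgeR adjusted p = 0.186). Among the subunits REL, RELB and NFKB1 rose by 1.56, 0.48 and 0.40, and RELA, the 1 member that fell, had a log2 fold change of -0.34 ± 0.0423 SE. ICAM1 and REL share more than 10% of their exon bases with other genes, and the methods say that stranded libraries were counted by strand without saying whether these libraries were stranded, so some of their reads could belong to those genes. The same holds for 108 of the tested genes on the lists.

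Growth factors and proteases of the SASP also changed in both directions. Of 36 growth factor and receptor genes, 20 were higher and 11 lower, beside 27.4% and 29.9% of all genes tested. The share lower was thus near that of all genes. PDGFB, a mitogen for mesenchymal cells, measured 1.05, 1.04 and 0.937 CPM and then 11.1, 13 and 11.5 CPM, 11.7-fold higher (edgeR adjusted p = 1.05e-12). GDF15, a stress-induced cytokine, rose 3.88-fold, IGFBP5, which binds insulin-like growth factors, 3.18-fold, and BMP2, a bone morphogenetic protein, 2.38-fold. IGFBP5 was among the more abundant of these transcripts, at 2134, 2179 and 2220 CPM in mtDNA cells and 6013, 8264 and 6499 CPM in mtDNA + acetate cells. IGFBP6 fell 2.43-fold, and HGF, the ligand of MET, 1.23-fold. Of 19 proteases and inhibitors, 10 were higher and 3 lower. The plasminogen activators PLAT and PLAU rose 3.45- and 2.66-fold, and PLAU reached 7078, 6983 and 6929 CPM. MMP3, stromelysin-1, fell from 49.6, 54.9 and 47.8 CPM to 16.4, 10.3 and 14.5 CPM, 3.65-fold lower, and MMP1, the interstitial collagenase, measured 729, 716 and 688 CPM and 778, 691 and 757 CPM and was not called (edgeR adjusted p = 0.467).

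The genes of cytosolic DNA sensing mostly fell. Of 13 tested (of 16 listed), 8 were lower, 2 higher and 3 did not pass, with a median log2 fold change of -0.48, and these counts were the same without replicate 2. In acetate cells against CCCP cells 7 of the 13 were lower and 1 higher, with a median of -0.40. No difference between the effects with and without mtDNA was called with all libraries, and 2 were called without replicate 2. CGAS, the DNA sensor, measured 18.5, 16.6 and 16.1 CPM in mtDNA cells and 13, 14.5 and 11.2 CPM in mtDNA + acetate cells, 1.33-fold lower (log2 -0.41 ± 0.10 SE, edgeR adjusted p = 0.000931). STING1, its downstream adaptor, went from 32.2, 29.8 and 30.4 CPM to 12.8, 15.9 and 12 CPM, 2.29-fold lower (edgeR adjusted p = 4.32e-10), with no overlap of the groups. IFI16, a further DNA-binding protein that interferon also induces, measured 457, 382 and 426 CPM and 185, 327 and 198 CPM. RNASEH2A, the catalytic subunit of RNase H2, fell 2.84-fold, with 53.3% of its exon bases shared with other genes. TBK1 rose by 0.13 on the log2 scale, a call lost without mtDNA + acetate replicate 3 (log2 0.12, edgeR adjusted p = 0.0569), IKBKE, a related kinase, rose by 0.78, and IRF3 had a log2 fold change of -0.11 ± 0.0735 SE that did not pass.

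Transcripts of the interferon pathway are ordered here from ligand to target. Of 17 genes of interferons, their receptors and receptor signalling tested (of 21 listed), 6 were higher and 4 lower with all libraries, and 7 higher and 7 lower without replicate 2. Over all genes tested the shares were 27.4% higher and 29.9% lower, or 26.5% and 27.5% without replicate 2. IFNB1, encoding interferon beta, had 25, 32 and 28 counts in the mtDNA libraries and 4, 30 and 6 counts in the mtDNA + acetate libraries, or 0.904, 1.15 and 0.904 CPM and 0.109, 1.23 and 0.21 CPM. It had 0 counts in each of the 6 libraries of CCCP and acetate cells, where 3 counts would correspond to 0.0629 to 0.109 CPM. In CPM replicate 2 lay above every mtDNA library and replicates 1 and 3 below every one, and the change was called without replicate 2 (6.18-fold lower, edgeR adjusted p = 0.000526) but not with it (log2 -1.05 ± 0.61 SE, edgeR adjusted p = 0.164). The receptor subunits IFNAR1 and IFNAR2 rose by 0.16 and 0.71 on the log2 scale. IRF7, which amplifies interferon transcription, fell 1.7-fold, a call lost without mtDNA replicate 1 or mtDNA + acetate replicate 1 or 3 (edgeR adjusted p = 0.0682, 0.0779 and 0.0631). IRF9 fell 1.58-fold, and USP18, a feedback inhibitor of the receptor, 2.4-fold with all libraries and 4.05-fold without replicate 2. IRF1, an interferon-regulatory factor and NF-κB target, rose 1.45-fold.

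ISGs were lower with acetate in the presence of mtDNA in mtDNA + acetate replicates 1 and 3, while in replicate 2 most were not below the mtDNA libraries. Of 40 genes, 33 were lower, 1 was higher and 6 did not pass, with a median log2 fold change of -0.78, and the 3 mtDNA + acetate libraries all lay below the 3 mtDNA libraries in 11, or 27.5% against 31.8% of all genes tested, so that this count did not stand out. Without replicate 2, 39 were lower and 1 higher, with a median of -1.53. Relative to the mean of the mtDNA libraries, the median level of the 40 genes was 32.6%, 103% and 35.8% in mtDNA + acetate replicates 1, 2 and 3. Replicates 1 and 3 lay below every mtDNA library in 39 genes. Replicate 2 was the highest of its group in all 40 and at or above the lowest mtDNA library in 29. The same library had the highest share of counts from mtDNA-encoded genes, 0.237% against 0.0640% and 0.0624%, and the part of this in the ISG levels was not tested.

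IFIT2, which binds viral RNA, measured 1465, 931 and 1391 CPM in mtDNA cells and 127, 732 and 125 CPM in mtDNA + acetate cells, 3.86-fold lower (log2 -1.95 ± 0.41 SE, edgeR adjusted p = 0.000311) and 9.9-fold lower without replicate 2. MX1, a GTPase that restricts influenza virus, measured 662, 427 and 589 CPM and 61.8, 325 and 62 CPM, 3.76-fold lower and 8.94-fold without replicate 2. RSAD2 (viperin) stood at 309.5, 168 and 275 CPM and 27.4, 89.8 and 27.4 CPM, 5.29-fold lower (edgeR adjusted p = 2.73e-07), with replicate 2 below every mtDNA library, and 9.06-fold lower without it. IFI44L, whose window above holds the interferon-response core, measured 108, 64 and 95.3 CPM and 5.53, 34.9 and 5.43 CPM. It fell 6.09-fold, and 16.1-fold without replicate 2. CMPK2, a nucleotide kinase encoded next to RSAD2, and RTP4 fell 5.96- and 6.05-fold, or 12.9- and 8.92-fold without replicate 2. ISG15, a ubiquitin-like modifier, measured 149, 121 and 137 CPM and 47.8, 142 and 49.6 CPM with replicate 2 within the mtDNA range. It was 1.71-fold lower with all libraries and 2.76-fold lower without replicate 2 (edgeR adjusted p = 0.00883 and 7.81e-14), and the call was lost without mtDNA + acetate replicate 1 or 3 (edgeR adjusted p = 0.0723 and 0.0698). IFIT1 and IFIT3 were 2.13- and 2.02-fold lower, or 4.01- and 3.35-fold without replicate 2. DDX58, which encodes the RNA sensor RIG-I, had a log2 fold change of -0.40 ± 0.26 SE with all libraries (edgeR adjusted p = 0.199) and -1.16 ± 0.0778 SE without replicate 2. LGALS3BP, encoding a secreted glycoprotein, was the 1 member that rose, at 113, 85.7 and 101 CPM and 122, 211 and 113 CPM.

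**Figure D2:**
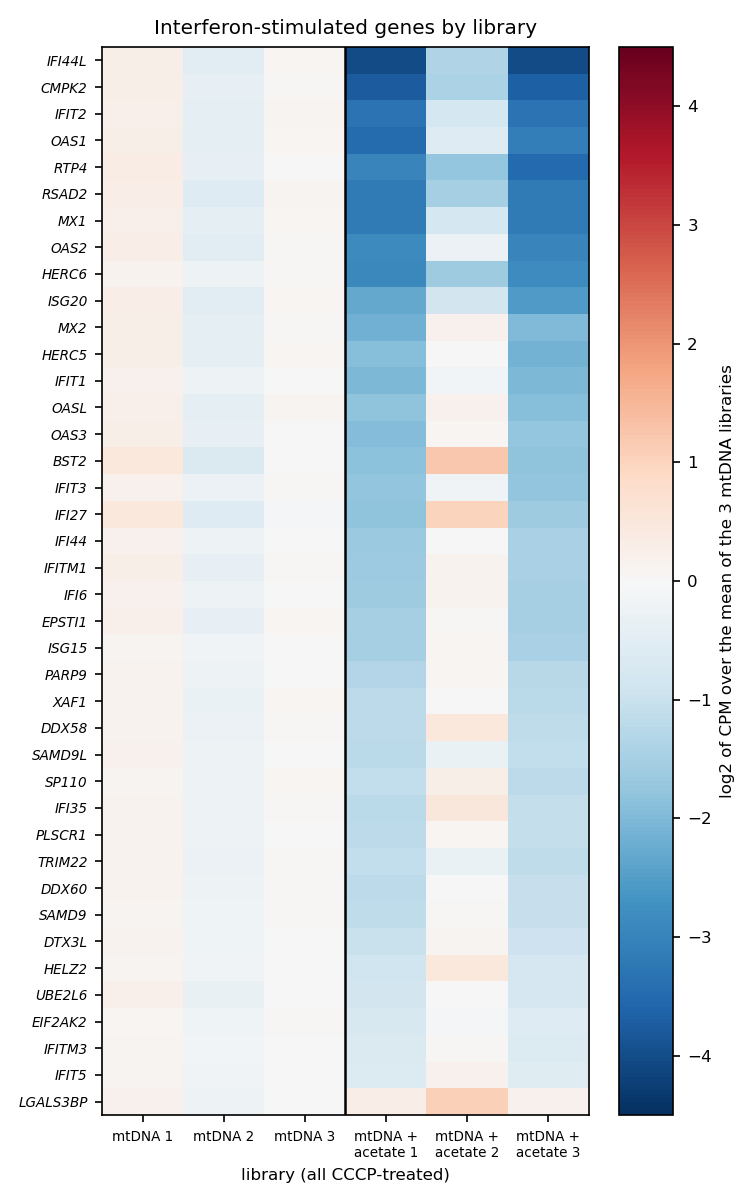
Level of 40 ISGs in each of the 6 libraries, as log2 of the CPM over the mean of the 3 mtDNA libraries. Blue is lower and red is higher, rows are ordered by the mean of mtDNA + acetate replicates 1 and 3, and the median level of the 40 genes was 32.6%, 103% and 35.8% of the mtDNA mean in mtDNA + acetate replicates 1, 2 and 3.

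The change of ISGs with acetate was also compared with that in cells without mtDNA. In acetate cells against CCCP cells 4 ISGs were higher, 2 lower and 34 did not pass, with a median log2 fold change of 0.08, from low levels: MX1 measured 0.92, 0.783 and 1.71 CPM in CCCP cells and 1.0, 0.969 and 0.735 CPM in acetate cells. The difference between the acetate effects with and without mtDNA was called for 2 of 40 ISGs, both lower with mtDNA, against 0.659% of all genes tested. IFI6, a mitochondrial ISG product, rose by 1.81 ± 0.43 SE without mtDNA (edgeR adjusted p = 0.00114) and fell by 0.75 on the log2 scale with it, a difference of -2.55 ± 0.51 SE (edgeR adjusted p = 0.0194). Without replicate 2 its log2 fold change with mtDNA was -1.52 ± 0.12 SE, and the call of the fall was lost without mtDNA + acetate replicate 1 or 3 (edgeR adjusted p = 0.159 and 0.152) or mtDNA replicate 1 or 3 (0.0932 and 0.0514). The other was RTP4, which was at most 0.273 CPM in every library without mtDNA, so that its acetate effect there rests on a few counts and no size of the difference is given. Without mtDNA + acetate replicate 2 the difference was called for 32 of 40 ISGs, against 2.3% of all genes tested. Of these, 29 were among the 30 ISGs with a mean of at least 1 CPM in CCCP or acetate cells, and 3 among the 10 under it, whose effect without mtDNA rests on few counts. MX1 and IFIT2 then differed by -2.89 and -3.38 on the log2 scale (edgeR adjusted p = 4.12e-05 and 2.09e-10).

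The genes of class I antigen presentation, which interferon induces, split. Of 15 genes, 2 were higher, 5 lower and 8 did not pass, with a median of -0.11. The share lower was near the 29.9% of all genes tested. The peptide transporter TAP1 fell 1.49-fold, or 1.86-fold without replicate 2, when 8 of the 15 were lower and 1 higher. The immunoproteasome subunits PSMB9 and PSMB8 were 1.42- and 1.35-fold lower with all libraries, and both calls were lost without replicate 1 or 3 of either group (edgeR adjusted p from 0.0578 to 0.119 for PSMB9 and from 0.0562 to 0.193 for PSMB8). B2M, the invariant light chain, measured 1029, 780.5 and 928 CPM and 755, 987 and 795 CPM and was called only without replicate 2 (log2 -0.22 ± 0.0763 SE, edgeR adjusted p = 0.0168).

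Transcripts of the mitochondrial genome were few in these cells. The 13 protein-coding mtDNA genes took 0.0519%, 0.0461% and 0.0534% of all counts in the mtDNA libraries and 0.0640%, 0.237% and 0.0624% in the mtDNA + acetate libraries, a mean of 0.0505% ± 0.00387 (SD, n = 3) against 0.121% ± 0.1 (SD, n = 3). The 3 mtDNA + acetate libraries were the 3 highest, which gave an exact two-sided permutation p of 0.1, the smallest that 3 against 3 allow. The ratio of the means was 2.4, and 1.25 without replicate 2. The share was 0.114% to 0.136% in CCCP cells and 0.124% to 0.138% in acetate cells. All 13 genes were called higher with acetate and 11 without replicate 2, with medians of 1.49 and 0.50 on the log2 scale. MT-ND4, a subunit of complex I, measured 86.4, 75.3 and 84.5 CPM and 117, 467 and 116 CPM, with replicate 2 far above the other two of its group, and it was 2.84-fold higher with and 1.44-fold higher without that library. MT-CO2, a subunit of complex IV, had a log2 fold change of 0.88 ± 0.30 SE with all libraries, -0.02 ± 0.0886 SE without replicate 2 and 0.83 without mtDNA replicate 2 (edgeR adjusted p = 0.0501).

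**Figure D3:**
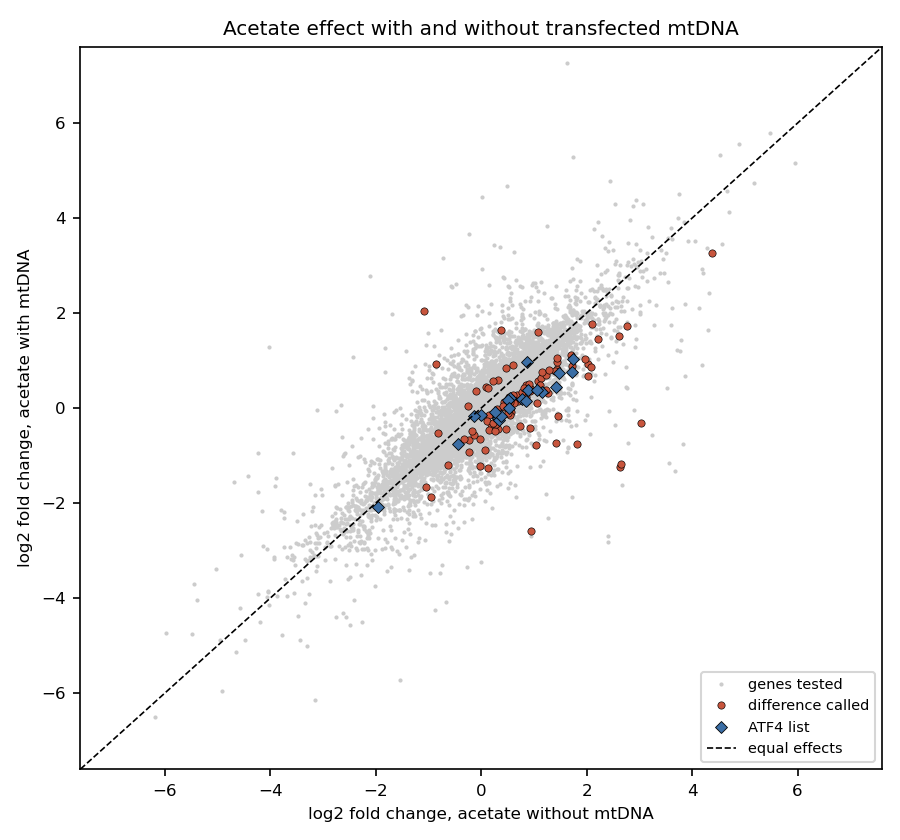
Log2 fold change of each of the 16994 genes tested with acetate in cells with mtDNA (vertical) against that in cells without mtDNA (horizontal). Red circles are the 112 genes whose 2 effects differed, blue diamonds the 21 genes of the ATF4 list, and the dashed line marks equal effects. Most red circles lie under the line.

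The effect of acetate differed with and without mtDNA in 112 genes (0.659% of those tested) at the same edgeR threshold. In 99 of these the effect was smaller or more negative with mtDNA and in 13 larger or more positive, and DESeq2 gave 137 and 147. Of the 112, 56 rose in both comparisons but by a smaller fold with mtDNA, and 32 were higher with acetate without mtDNA and lower with it. Without mtDNA + acetate replicate 2, 403 genes differed, 331 and 72 in the same order, and 111 of the 112 were among them.

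The genes of the ATF4 stress response, which supplies amino acids and one-carbon units when mitochondria or protein synthesis are disturbed, held the most such genes of any list when all libraries were kept. The difference was called for 15 of 21 genes, all with a smaller or more negative log2 effect with mtDNA, against 0.659% of all genes, and for 17 of 21 without replicate 2, when it was also called for 32 of 40 ISGs. The lists were chosen with earlier results of these data known. These shares therefore describe the lists and are not independent support for an effect on them. Without mtDNA, acetate raised 17 and lowered 2 of the 21 (median 0.54), and with mtDNA it raised 10 and lowered 6 (median 0.16). ASNS, which makes asparagine, measured 108, 106 and 100.3 CPM in CCCP cells, 275, 284 and 287 CPM in acetate cells, 259, 241 and 257 CPM in mtDNA cells and 352, 324 and 351 CPM in mtDNA + acetate cells. None of these 4 groups overlapped with another, and the acetate effects differed by -0.99 ± 0.0743 SE on the log2 scale (edgeR adjusted p = 1.63e-07). TRIB3, a pseudokinase that restrains ATF4, measured 33.5, 33.5 and 30.1 CPM in CCCP cells, 73.3, 73.6 and 70.4 CPM in acetate cells, 79.2, 80.04 and 77.3 CPM in mtDNA cells and 101, 103 and 93.2 CPM in mtDNA + acetate cells, a difference of -0.83 ± 0.0831 SE (edgeR adjusted p = 1.03e-05). PCK2, the mitochondrial PEP carboxykinase, measured 12.2, 11.1 and 9.4 CPM in CCCP cells, 34.9, 35.3 and 37.5 CPM in acetate cells, 27.1, 24.2 and 27 CPM in mtDNA cells and 44.1, 46 and 42.7 CPM in mtDNA + acetate cells, a difference of -0.95 ± 0.11 SE. In these genes mtDNA cells already stood above CCCP cells, and mtDNA + acetate cells were the highest group.

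MTHFD2, which makes one-carbon units in mitochondria, measured 207, 209 and 197 CPM in CCCP cells, 256, 259.6 and 255 CPM in acetate cells, 362, 349.8 and 376 CPM in mtDNA cells and 308, 295 and 306 CPM in mtDNA + acetate cells. It rose with acetate without mtDNA and fell with it (0.33 ± 0.0413 SE and -0.26 ± 0.0412 SE, difference -0.59 ± 0.0583 SE, edgeR adjusted p = 1.03e-05). PHGDH and PSPH, enzymes of serine synthesis, moved in the same way with all libraries, with differences of -0.54 and -0.54, but their falls with mtDNA did not pass without mtDNA + acetate replicate 2 (edgeR adjusted p = 0.104 and 0.125), nor that of PHGDH without mtDNA replicate 2 (0.0875) and that of PSPH without mtDNA replicate 1 or 3 (0.0601 and 0.0556), while PSAT1, the enzyme between them, rose in both comparisons with a difference of -0.74. CHAC1, DDIT4 and VLDLR rose in both comparisons and differed by -0.70, -0.69 and -0.50. SLC7A5 and SLC3A2, the chains of an amino acid transporter, the second of which fell in both comparisons, differed by -0.52 and -0.32, and CEBPB, SHMT2 and CTH by -0.59, -0.34 and -0.70. The 6 genes without a called difference were ATF4 itself, ATF5, DDIT3, ATF3, SLC7A11 and ALDH1L2. ATF4 measured 596, 613 and 621 CPM in CCCP cells, 608, 593 and 612 CPM in acetate cells, 593, 604 and 584 CPM in mtDNA cells and 577, 470.3 and 561 CPM in mtDNA + acetate cells, and its log2 fold change with mtDNA of -0.15 ± 0.06 SE passed with all libraries (edgeR adjusted p = 0.0418) but not without mtDNA + acetate replicate 2 (edgeR adjusted p = 0.448) or without any 1 of the mtDNA libraries (0.0879 to 0.166). ATF5 fell 4.25-fold with acetate in mtDNA cells, and SLC7A11, the cystine transporter, rose 1.97-fold. ASNS and DDIT3 share 49.3% and 39.6% of their exon bases with other genes.

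**Figure D4:**
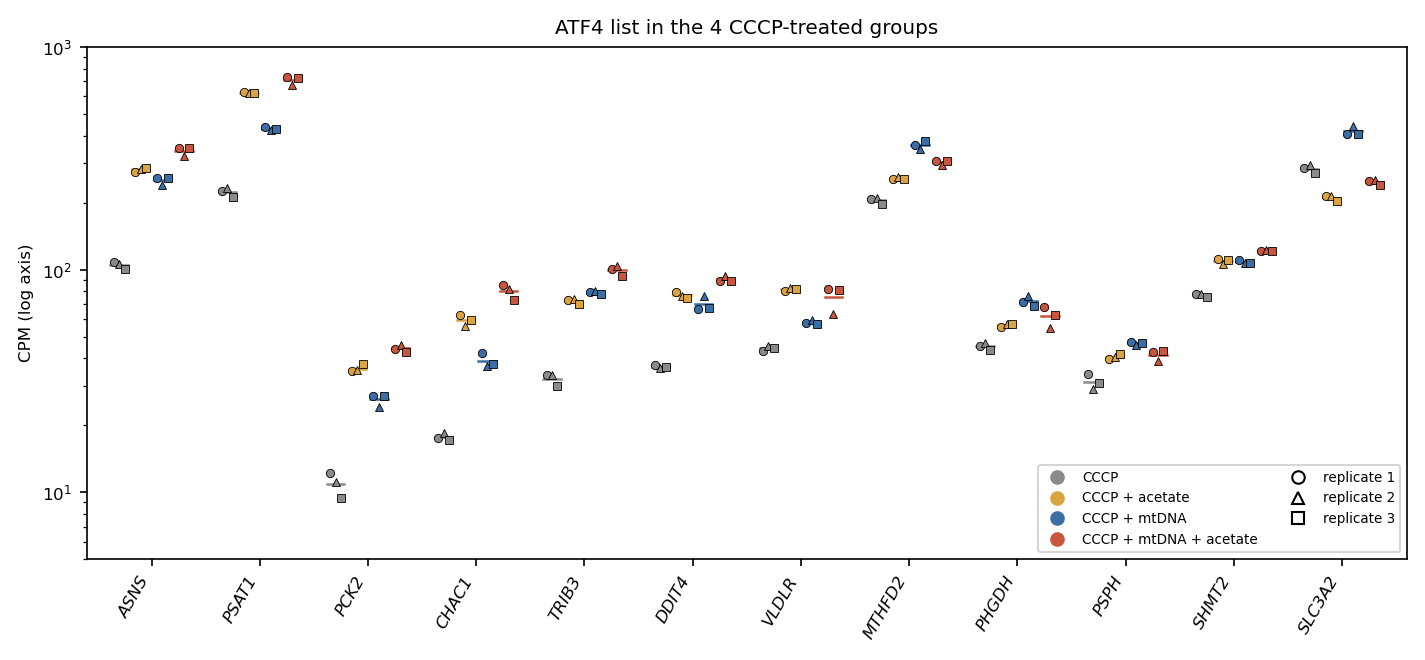
Expression of 12 genes of the ATF4 list in CCCP, acetate, mtDNA and mtDNA + acetate cells, in CPM on a log axis, with symbols for replicates and bars for group means. ASNS stood at 100 to 108 CPM in CCCP cells, 275 to 287 CPM in acetate cells, 241 to 259 CPM in mtDNA cells and 324 to 352 CPM in mtDNA + acetate cells.

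Outside that list, NAMPT, the rate-limiting enzyme of NAD salvage, measured 228, 235 and 222 CPM in CCCP cells, 413, 431 and 388 CPM in acetate cells, 526, 481 and 503 CPM in mtDNA cells and 609, 592 and 577 CPM in mtDNA + acetate cells and differed by -0.61 ± 0.0683 SE (edgeR adjusted p = 5.15e-05). CDKN2B, encoding the cell cycle inhibitor p15, measured 44.3, 42.8 and 41.3 CPM in CCCP cells, 145, 136 and 138 CPM in acetate cells, 82.3, 76.2 and 83.2 CPM in mtDNA cells and 167, 184 and 172 CPM in mtDNA + acetate cells, a difference of -0.59 ± 0.0716 SE (edgeR adjusted p = 0.000117). Among inflammatory genes the fold rise with acetate was smaller with mtDNA for IL6 (-1.04), ICAM1 (-1.11), BIRC3 (-0.77) and RELB (-0.63), as differences on the log2 scale. All rose from a higher level in mtDNA cells than in CCCP cells. IL6 measured 18.6, 18 and 17.9 CPM in CCCP cells and 145, 116 and 112 CPM in acetate cells, so that acetate gave log2 fold changes of 2.77 ± 0.12 SE without and 1.73 ± 0.11 SE with mtDNA. The level of IL6 was highest in mtDNA + acetate cells, so its smaller fold does not mean a lower level. CXCL10 rose by 3.03 ± 0.66 SE without mtDNA, from 1.23, 1.29 and 1.63 CPM to 16, 8.48 and 9.76 CPM, and differed by -3.33 ± 0.76 SE (edgeR adjusted p = 0.0424). For IL1A, IL1B and CXCL8 the difference was -0.78 ± 0.29 SE, -0.09 ± 0.16 SE and -0.58 ± 0.17 SE and did not pass. The 6 genes of smallest adjusted p with a larger effect in the presence of mtDNA were MITF, GPR155, PWAR5, NLRP1, FAM117B and VCAN. MITF, a transcription factor of pigment cells and lysosomal genes, measured 67, 71.9 and 74 CPM in CCCP cells, 99.7, 99.4 and 97.5 CPM in acetate cells, 61.5, 58.2 and 60.2 CPM in mtDNA cells and 103, 109.7 and 109 CPM in mtDNA + acetate cells, a difference of 0.36 ± 0.0632 SE (edgeR adjusted p = 0.00665). VCAN, encoding the matrix proteoglycan versican, measured 358, 376 and 368 CPM in CCCP cells, 403, 389.6 and 378 CPM in acetate cells, 316, 315 and 329 CPM in mtDNA cells and 410.0, 450.2 and 444 CPM in mtDNA + acetate cells, a difference of 0.35 ± 0.0749 SE. PWAR5 overlaps another gene over 100% of its exon bases, so its reads cannot be assigned.

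Genes of the cell cycle were lower with acetate throughout. All 20 proliferation genes fell, with a median log2 fold change of -1.73, and in all 20 the 3 mtDNA + acetate libraries lay below the 3 mtDNA libraries. RRM2, a subunit of ribonucleotide reductase, measured 197, 203 and 205 CPM and 24.5, 40.2 and 27.1 CPM, 6.65-fold lower (log2 -2.73 ± 0.12 SE, edgeR adjusted p = 2.95e-14). MKI67, which encodes Ki-67, measured 23.2, 26.4 and 28.6 CPM and 3.51, 6.23 and 4.66 CPM, 5.57-fold lower, and CCNA2, CDK1 and TOP2A fell 5.49-, 5.51- and 4.25-fold. PCNA, the sliding clamp of DNA polymerase, fell 1.99-fold. In 18 of the 20 genes replicate 2 was the highest of the mtDNA + acetate libraries. In bulk RNA fewer cycling cells and less of these transcripts per cell cannot be told apart. The same 20 genes fell with acetate without mtDNA (median -2.02), and no difference was called for any of them.

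Of 15 cell cycle inhibitor and nuclear lamina genes 7 were higher and 6 lower, beside 27.4% and 29.9% of all genes tested. CDKN1A, encoding p21, rose 1.53-fold, from 1112, 1216 and 1123 CPM to 1817, 1706 and 1751 CPM (edgeR adjusted p = 8.49e-10), and CDKN2B rose 2.16-fold. CDKN2A, encoding p16 and p14ARF, measured 9.0, 8.55 and 9.17 CPM and 9.23, 9.1 and 8.4 CPM, a log2 fold change of 0.00 ± 0.10 SE that did not pass. LMNB1, lamin B1, whose loss is a marker of senescence, went from 13.6, 12.4 and 12.3 CPM to 3.46, 2.95 and 3.54 CPM, 3.83-fold lower (edgeR adjusted p = 9.47e-13), and HMGB2, a chromatin protein that is also lost in senescence, fell 2.11-fold.

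Contractile genes rose in 15 of 17 cases, with 1 lower and a median log2 fold change of 1.23, or 1.07 without replicate 2. ACTA2, smooth muscle alpha actin, measured 44.3, 37.4 and 39.5 CPM and 134, 240.3 and 135 CPM, 4.2-fold higher (log2 2.07 ± 0.15 SE, edgeR adjusted p = 1.89e-10). ACTG2, whose window above holds 2 CArG boxes, measured 28, 25.3 and 23.9 CPM and 94.8, 222 and 95.8 CPM. LMOD1, an actin nucleator of smooth muscle, rose 11.2-fold, and CCN2, a target of YAP, 3.9-fold. Replicate 2 was the highest of the mtDNA + acetate libraries in 15 of the 17 genes, and without it ACTA2 rose 3.37-fold and ACTG2 3.74-fold. TAGLN and ACTA2 share 47.8% and 36.2% of their exon bases with other genes, and reads of ACTA2 and ACTG2 can be split between these paralogs. TGFB1I1, encoding the focal adhesion protein Hic-5, fell 1.66-fold.

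Of 32 collagen and matrix genes 21 were higher, 5 lower and 6 did not pass, with a median of 0.42, or 0.25 without replicate 2, when 18 were higher and 6 lower. COL12A1, a collagen that coats fibrils, measured 1010, 811 and 949.6 CPM and 3193, 3470 and 3654 CPM, 3.72-fold higher (edgeR adjusted p = 6.92e-15). FN1, fibronectin, and THBS1, thrombospondin-1, rose 2.52- and 2.91-fold, and LUM, the proteoglycan lumican, 4.14-fold. The main fibrillar collagens did not rise together. COL1A1 was 1.17-fold higher with all libraries and did not pass without mtDNA + acetate replicate 2 (log2 0.13 ± 0.0769 SE, edgeR adjusted p = 0.176) or mtDNA replicate 2 or 3 (0.0714 and 0.0682), while COL1A2 and COL3A1 fell 1.3- and 1.68-fold. COL3A1 measured 234, 152 and 197 CPM and 84.9, 169 and 94.4 CPM, with replicate 2 again inside the mtDNA range. COL15A1, a collagen near basement membranes, fell 3.02-fold.

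Genes that supply and use acetyl-CoA changed in both directions. Of 21 genes of acetyl-CoA supply 7 were higher and 7 lower, with a median of 0.07. These counts were close to the shares over all genes tested, 27.4% higher and 29.9% lower. ACSS2, which makes acetyl-CoA from acetate, measured 14.6, 12.9 and 14.3 CPM and 18.9, 20.6 and 16.8 CPM, 1.35-fold higher (log2 0.43 ± 0.0785 SE, edgeR adjusted p = 6.84e-05), and ACSS3, a mitochondrial relative, rose 1.76-fold. ACLY, which makes acetyl-CoA from citrate, measured 352, 358 and 343 CPM and 263, 307 and 266 CPM, 1.26-fold lower, and CS, citrate synthase, was 1.33-fold lower. SLC25A1, the citrate carrier of the mitochondrial membrane, had a log2 fold change of 0.08 ± 0.0566 SE that did not pass. Of 28 histone acetylation genes 9 were higher and 12 lower, beside the same 27.4% and 29.9% of all genes tested, with a median of -0.03. The acetyltransferases KAT5, CREBBP, KAT2A and EP300 fell 2.01-, 1.58-, 1.44- and 1.37-fold. Among deacetylases HDAC5 rose from 10.8, 11.1 and 11.7 CPM to 34, 30.4 and 29.9 CPM, 2.81-fold, HDAC1 rose 1.36-fold and SIRT7 fell 1.77-fold. BRD2, a reader of acetyl-lysine, fell 1.68-fold. HDAC9 was the 1 gene of this list with a called difference from the effect without mtDNA (-0.38).

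**Figure D5:**
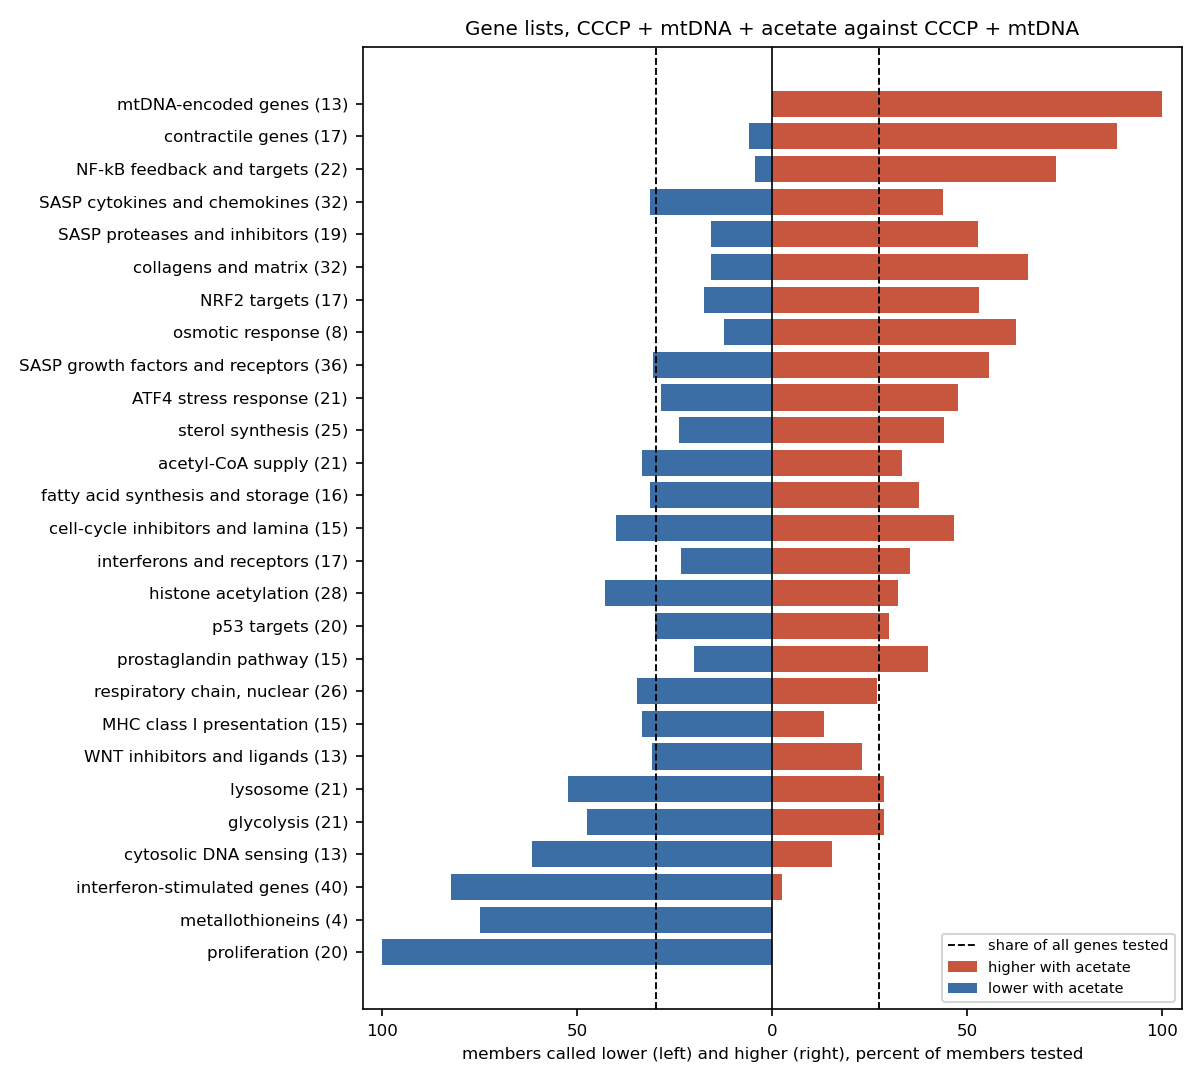
Share of the tested members of 27 gene lists that were called higher (red, right) or lower (blue, left) in mtDNA + acetate cells than in mtDNA cells, in percent, with the number tested in parentheses and lists ordered by their median log2 fold change. Dashed lines mark the shares over all genes tested, 27.4% higher and 29.9% lower. Without mtDNA + acetate replicate 2 the medians of 8 lists moved by more than the spread between replicates, among them those of ISGs (-0.78 to -1.53) and mtDNA-encoded genes (1.49 to 0.50).

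The largest changes were named by a rule that asked for groups that did not overlap, a mean of at least 5 CPM in the higher group and a call that held without replicate 2. Besides IL1A, CXCL8, CSF2, PDGFB and LMOD1, the largest rises were C7orf69, PSG1, NECTIN3-AS1, PURG and PKD1L1. C7orf69, which lies within the span of PKD1L1, measured 0.217, 0.323 and 0.162 CPM and 13.2, 12.3 and 13.3 CPM, and PKD1L1, a polycystin, 0.47, 1.11 and 0.775 CPM and 8.31, 7.17 and 10.5 CPM. PSG1, a glycoprotein of pregnancy with close paralogs, measured 0.289, 0.359 and 0.484 CPM and 6.16, 16 and 5.81 CPM, with replicate 2 more than 2-fold above the others of its group, and was 23.6-fold higher with and 15.7-fold higher without it. NECTIN3-AS1 is an antisense transcript whose reads cannot be told from those of the other strand if the counting was unstranded.

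The largest falls were RGS18, APLN, SLC25A21, TACR1, CDC20, GTSE1, BIRC5, DISP2, SKA1 and CDCA5. RGS18, a regulator of G protein signalling, measured 123, 87.1 and 117 CPM and 6.18, 7.62 and 7.39 CPM, 15.6-fold lower (log2 -3.96 ± 0.12 SE, edgeR adjusted p = 1.22e-16). APLN, the peptide apelin, went from 6.51, 7.4 and 6.72 CPM to 0.354, 0.451 and 0.595 CPM, and TACR1, the receptor of substance P, from 21.2, 13.7 and 18.6 CPM to 1.58, 1.48 and 2.38 CPM. CDC20, GTSE1, BIRC5, SKA1 and CDCA5 act in mitosis and fell by 9.32-, 9.03-, 8.74-, 8.55- and 8.19-fold. In all 20 genes of this rule the change with acetate had the same direction without mtDNA, and no difference between the effects was called with all libraries. Without replicate 2 it was called for PURG (edgeR adjusted p = 0.0212).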

How the data were processed

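Polyadenylated RNA of 18 libraries in 6 groups of 3 was sequenced by the authors. Per the labels and the submitters' processing notes, reads were trimmed with Trimmomatic 0.36, aligned with STAR 2.5.2b and counted per gene with Subread 1.5.2. The authors deposited raw counts for 57500 genes and TPM, counts scaled for gene length and depth. Stranded libraries were counted by strand, per the methods, which do not say whether these were stranded. Columns were matched to samples by their labels, and 485 genes carried no symbol.

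Counts were fitted with edgeR 4.0.16 (R 4.3.3, limma 3.58.1): TMM, the default expression filter, 6 group means and the quasi-likelihood test over all libraries, which share 1 estimate of the spread, with Benjamini-Hochberg adjustment at 0.05. CPM used TMM-scaled totals, and TPM served only to order levels. The standard error is the log2 fold change divided by the square root of F. Contrasts were mtDNA + acetate minus mtDNA, acetate minus CCCP, and their difference. Depth was 25013145 to 36703448 counts per library in the compared groups and 24624886 to 46224280 over all 18 libraries. The floor of 3 counts given for IFNB1 covers counting error only, while the standard errors include the spread between libraries. Scripts were tested on simulated data.

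Members and lists were chosen with earlier results of these data known. Named genes were the 10 largest rises and falls under the conditions given in the text, the list members with the largest changes or that define a pathway, the 6 genes of smallest adjusted p for the difference in each direction, and those whose sequences are shown. Genes on the Y chromosome, XIST, pseudogenes and unnamed loci were left out. Alternatives were DESeq2 1.42.0, its size factors, other filters, glmTreat, removal of mtDNA-encoded genes, a fit of the compared groups alone, a replicate block and each library left out. A few genes are not reported here.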

Additional observations from a re-analysis of the deposited data

Results flagged for a closer look

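Of the genes named or listed here, 39 had an acetate effect that differed between cells with and without mtDNA at an edgeR adjusted p of 0.05, an interaction test over libraries. Of these 33 were lower with mtDNA, 6 were higher, and 33 belong to the gene lists. Values are the log2 effect with mtDNA minus that without.

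In the ATF4 list these were ASNS (-0.99), PCK2 (-0.95), TRIB3 (-0.83), PSAT1 (-0.74), CTH (-0.70), CHAC1 (-0.70), DDIT4 (-0.69), CEBPB (-0.59), MTHFD2 (-0.59), PSPH (-0.54), PHGDH (-0.535), SLC7A5 (-0.52), VLDLR (-0.50), SHMT2 (-0.34) and SLC3A2 (-0.32). Interferon-inducible genes were RTP4 (-3.54), CXCL10 (-3.33) and IFI6 (-2.55). RTP4 was at most 0.273 CPM in every library without mtDNA and passed the filter through the mtDNA groups, so its value rests on a few counts and is not an estimate of size. Among SASP and NF-κB genes the differences were ICAM1 (-1.11), IL6 (-1.04), BIRC3 (-0.77), RELB (-0.63), EREG (-0.61), VEGFC (-0.47), IGFBP1 (-0.96), MMP3 (-0.91) and MMP1 (-0.47). EREG is an EGF receptor ligand, VEGFC a lymphatic growth factor and IGFBP1 a binding protein of insulin-like growth factors. Other members of lists were ATP6V0D2 (-0.95), SESN2 (-0.60), CDKN2B (-0.59), HDAC9 (-0.38), AKR1B1 (-0.34) and VCAN (0.35), of which ATP6V0D2 is a subunit of the lysosomal proton pump and SESN2 a stress-induced regulator of mTORC1. Outside the lists, NAMPT differed by -0.61, and PWAR5 (1.275), GPR155 (0.53), FAM117B (0.46), MITF (0.36) and NLRP1 (0.35) had a larger effect with mtDNA. Groups of 3 libraries are too small for a test of single outlying samples.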

How the results depend on the processing

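Of 180 named genes, 158 kept their direction and their side of the threshold under every alternative that could be run, and over 2317 values 57 lost the call, 14 gained it and 7 changed sign. Part of this was set by the choice of genes. The largest rises and falls were named only if their call held without mtDNA + acetate replicate 2. Of 27 list medians 13 moved by less than the spread between replicates under every alternative. Genes called with acetate in mtDNA cells numbered 9748, and 2453 by glmTreat against a 1.5-fold change and 5760 by DESeq2 at an unadjusted p under 0.05 with an absolute log2 fold change over 0.5. Genes with a difference in the acetate effect numbered 112, and 284 by DESeq2, 413 with no filter on low counts and 1 by glmTreat. They ranged from 55 without CCCP replicate 3 to 403 without mtDNA + acetate replicate 2, and fell to 62 without mtDNA replicate 1, 67 without mtDNA replicate 3, 62 without CCCP replicate 2, and 68, 73 and 68 without acetate replicates 1, 2 and 3. The cause was not tested. The glmTreat count of the difference and the alternatives for acetate without mtDNA were chosen after seeing the data.

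Leaving out 1 library at a time, the log2 fold change ranged from -1.36 to 0.059 for CXCL10, from -0.0131 to 0.0584 for CDKN2A, from -0.00446 to 0.0683 for SLC7A5 and from -0.0215 to 1.21 for MT-CO2. The labels do not say whether libraries of the same number were paired. The correlation of same-numbered deviations between mtDNA and mtDNA + acetate cells was -0.048, -0.0691 and 0.0116, values too few to settle this. With the replicate block 4666 genes were higher, 5098 lower and 123 had a difference in effect, and CDKN2A stood at -0.00112. Depth limits IFNB1 and other genes under 1 CPM.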

Other observations

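Single genes of the prostaglandin, WNT and redox lists changed with acetate in mtDNA cells, beside 27.4% of all genes tested that were higher and 29.9% that were lower. Of 15 prostaglandin genes 6 were higher and 3 lower, with a median log2 fold change of -0.05. PTGS2, the inducible cyclooxygenase, measured 31.9, 29.4 and 34.4 CPM in mtDNA cells and 80.1, 93.2 and 81.9 CPM in mtDNA + acetate cells, 2.66-fold higher (edgeR adjusted p = 2.01e-11), and PTGS1, the constitutive enzyme, rose 2.35-fold. PTGES, a prostaglandin E synthase, rose 3.52-fold from 1.23, 1.83 and 2.0 CPM. PTGIS, prostacyclin synthase, had no counts in the mtDNA libraries and stood at 0.463, 0.779 and 0.56 CPM in the mtDNA + acetate libraries. Of 13 WNT genes 3 were higher and 4 lower (median -0.13), shares close to those over all genes. DKK1, a secreted WNT inhibitor, went from 62, 65.7 and 61.2 CPM to 11.8, 9.14 and 11.6 CPM, 5.77-fold lower, and LEF1, a transcription factor of the pathway, fell 2.17-fold. WNT16, a ligand found in senescent fibroblasts, rose 2.13-fold. Of 17 NRF2 targets 9 were higher and 3 lower (median 0.38). NQO1, a quinone reductase, rose 3.09-fold, from 255, 245 and 247 CPM to 824, 694 and 787 CPM, while HMOX1, heme oxygenase 1, fell 1.9-fold. Of 4 metallothioneins tested 3 were lower, among them MT2A (1.85-fold). Reads of the MT1 genes can be split between paralogs.

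Metabolic lists were more evenly split, beside the 27.4% of all genes tested that were higher and 29.9% that were lower. Of 21 glycolysis genes 6 were higher and 10 lower (median -0.18), and LDHA, lactate dehydrogenase A, measured 2129, 2476 and 2164 CPM and 1559, 1145 and 1531 CPM, 1.6-fold lower. Of 25 sterol genes 11 were higher and 6 lower (median 0.16), with INSIG1, which retains the pathway's regulator, 1.68-fold lower. Of 16 fatty acid genes 6 were higher and 5 lower, FASN, fatty acid synthase, being 1.45-fold lower. Of 26 nuclear-encoded respiratory chain genes 7 were higher and 9 lower, and of 21 lysosome genes 6 were higher and 11 lower. Of 20 p53 targets 6 were higher and 6 lower, with TNFRSF10B, a death receptor, 1.84-fold higher and FAS, another death receptor, 1.93-fold lower. Of 8 osmotic response genes 5 were higher and 1 lower, with AKR1B1, aldose reductase, 3.39-fold higher and SGK1 2.02-fold lower.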
